A study of Mus musculus with 6 samples.

Results

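The tight junction genes described here are 10 of the 18193 genes read in uterine RNA on 6 Affymetrix mouse arrays. They are the claudins Cldn1, Cldn3, Cldn4, Cldn7, Cldn8, Cldn10 and Cldn11, the occludin gene Ocln, and Tjp1 and Tjp3, which encode the scaffold proteins ZO-1 and ZO-3. They were chosen by name: 17 of 45037 probe sets carried exactly 1 gene symbol that is one of these. Cldn1 and Cldn3 had 4 probe sets each, Ocln had 2, and the other 7 genes had 1 each. The probe set whose mean over the 6 arrays was highest represented its gene. The study compared 3 arrays of mutant with 3 arrays of control uteri at 4 weeks of age, in order to find genes regulated by β-catenin in a mouse model of adenomyosis, in which endometrial glands and stroma grow within the muscle wall. The mutant mice were Pgr cre/+ Ctnnb1f(ex3)/+. Cre driven by the progesterone receptor gene Pgr excises the floxed exon 3 from one Ctnnb1 allele in Pgr-expressing cells, so that a stable form of β-catenin is made there. The control mice are labelled wild type, while the methods name Pgr cre/+ and Ctnnb1 f(ex3)/+ mice as controls. By the methods, the uterine RNA of each genotype was a pool of 3 mice. It is therefore not known if each array stands for its own animals, and the p-values cover no more than the spread between arrays, which may be technical.

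Tight junctions seal the space between neighbouring epithelial or endothelial cells and hold apart the apical and basal parts of their membranes. Claudins are small membrane proteins whose extracellular loops meet those of the next cell, and each type either tightens the seal or forms a pore for certain ions. Occludin is a further membrane protein of the strand, and the ZO proteins bind claudin tails and tie the strand to actin. In the uterus these junctions lie in the luminal and glandular epithelium and in blood vessels, and loss of claudins and occludin is a usual part of epithelial–mesenchymal transition (EMT), the process the study followed. The arrays read whole uteri, in which fewer epithelial cells and less RNA per cell cannot be told apart.

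The deposited values were linear intensities with medians of 7.23 to 7.42 over the arrays, and levels are given here as their log2. An intensity of 16 was not reached by 62.3 to 62.6% of probe sets on each array, and small values may understate a change. The p-values rest on 3 arrays in each group, which may not be separate animals. Pearson's r was 0.994 between mutant arrays, 0.992 to 0.996 between control arrays and 0.981 to 0.990 between the groups, over probe sets that are not independent of each other. Epithelial RNA was read on every array. Epcam, an epithelial adhesion protein, had log2 intensities of 9.38, 9.33 and 9.76 in mutant replicates 1 to 3, against 9.60, 9.32 and 9.66 in control replicates 1 to 3. The summed intensity of 17 epithelial markers was 6613, 6443 and 8777 in mutant replicates 1 to 3, against 8968, 8226 and 9480 in control replicates 1 to 3. The sum of 8 adipocyte markers ran from 2542 to 4012 in the mutant and from 227 to 1490 in the control arrays, and Adipoq, which encodes adiponectin, lay at 9.32 to 10.05 in the mutant and at 5.23 to 8.44 in the control arrays (log2 intensity). Of these 8 markers 3 were higher by limma (5.61% of all genes) and all 8 at an unadjusted p under 0.05. No share over all genes is given for limma's unadjusted counts, here or below. The part of the adipocyte markers in the junction genes' differences was not tested.

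Of the 10 genes, 2 were higher and 2 lower in mutant uteri at an adjusted p under 0.05 from limma, and 6 were not called. Over all genes tested, 12.0% were called, 5.61% higher and 6.36% lower, and 2 of 10 each way stand against these shares on very few genes. The genes did not all change one way. Cldn10, a pore-forming claudin, and Tjp3, the scaffold ZO-3, fell, while Tjp1, the scaffold ZO-1, and Cldn8, a claudin of the distal kidney tubule, rose. All 4 calls were lost when intensities were raised to a floor of 16, and with the methods' t-test after adjustment. No intensity of these 4 genes was below 16. The floor therefore left their fold changes as they were, while their standard errors from limma became larger, for Cldn8 only from 0.116 to 0.122. The loss was not particular to these genes. Over all genes, 283 were higher and 243 lower with this floor, against 1021 and 1157 in the main fit. The median log2 fold change of the 10 genes was -0.02, against -0.01 over all genes. Every mutant array lay below every control array for 2 of the 10 genes (17.4% of all genes) and above it for 4 (14.9% of all genes). Cldn4 is among these 4 with only a very small gap. With all 45037 probe sets fitted together, 1 of the 17 probe sets was higher (3.49% of all probe sets), 2 were lower (3.41% of all probe sets) and 14 were not called.

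**Figure D1:**
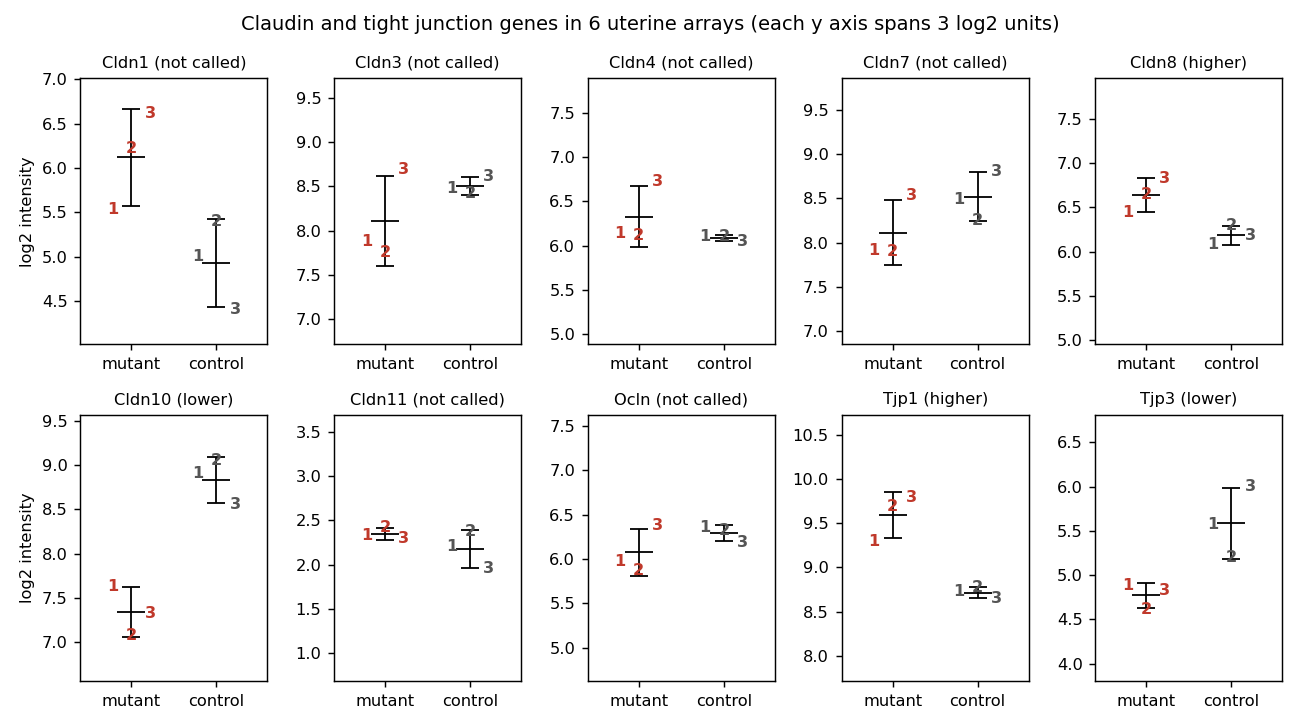
Each panel plots the log2 intensity of 1 gene (y axis) on the 3 mutant arrays (red, left) and the 3 control arrays (grey, right); the digits are replicate numbers, black bars show the mean and SD, and each y axis spans 3 log2 units. Mutant and control arrays stand apart for Cldn1, Cldn8, Cldn10, Tjp1 and Tjp3. For Cldn4 they barely do, with the lowest mutant array at 6.11 and the highest control array at 6.107. Mutant replicate 3 is the highest mutant array for 7 of the 10 genes.

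Cldn10 changed most among the called genes. Its protein lines paracellular channels, and the gene has alternative first exons whose products differ in the ions they let pass. Cldn10 had log2 intensities of 7.63, 7.07 and 7.32 in mutant replicates 1 to 3, against 8.90, 9.05 and 8.55 in control replicates 1 to 3. Every mutant array lay far below every control array. The log2 fold change was -1.49 (limma's standard error, SE, 0.17, 95% interval -1.9 to -1.09, adjusted p = 0.00258), so that 35.6% of the control intensity was left. Leaving out any 1 array kept the call (-1.64 to -1.36, adjusted p of 0.00202 to 0.0175). Cldn10 was read by 1 probe set, of the kind Affymetrix marks as shared by several transcripts, and the sources used here do not say which of its starts that set reads. RefSeq places its starts apart on chromosome 14 of GRCm38.p6, at chr14:118787621-118787920 and chr14:118854700-118854999 on the plus strand. Each window holds 250 bases before the start and 50 after it, and both are shown because no other gene of the set fell as far. Capitals mark the TCF/LEF heptamers made of CTTTG and then TT, TA, AT or AA, the sites of the factors that carry β-catenin to DNA, and the E-box CAGGTG, which Snail and ZEB repressors bind, each read on both strands.
Cldn10, upstream start: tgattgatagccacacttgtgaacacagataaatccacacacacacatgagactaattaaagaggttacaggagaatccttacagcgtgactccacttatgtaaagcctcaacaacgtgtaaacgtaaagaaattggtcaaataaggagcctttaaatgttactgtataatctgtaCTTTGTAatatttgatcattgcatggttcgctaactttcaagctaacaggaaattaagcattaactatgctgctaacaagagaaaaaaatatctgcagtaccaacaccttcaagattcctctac
Cldn10, downstream start: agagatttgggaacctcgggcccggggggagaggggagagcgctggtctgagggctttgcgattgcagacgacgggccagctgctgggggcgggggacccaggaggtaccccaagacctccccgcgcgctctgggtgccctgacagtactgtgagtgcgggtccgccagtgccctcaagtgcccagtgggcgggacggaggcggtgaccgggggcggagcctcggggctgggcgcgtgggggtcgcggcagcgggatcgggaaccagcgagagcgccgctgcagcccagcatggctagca

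The upstream window of Cldn10 held 1 TCF/LEF heptamer and no E-box, and the downstream window held neither. Of all 32851 promoter windows of this length, 16.9% held at least 1 of the heptamers and 20.2% the E-box. RefSeq windows were found for 9 of the 10 genes, 13 windows in all, of which 2 held a heptamer and 7 an E-box. The windows with an E-box belonged to 5 genes, Cldn3, Cldn4, Cldn7, Ocln and Tjp3, and both Ocln windows overlap and share 1 of their E-boxes. None was found in these windows of Cldn1, Cldn10, Cldn11 or Tjp1. These counts describe letters in short windows and show nothing about binding in the uterus.

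Cldn3, Cldn4 and Cldn7 are claudins of simple epithelia, and Cldn3 and Cldn4 are known receptors of a clostridial enterotoxin. None of them was called. Cldn3 had log2 intensities of 7.87, 7.75 and 8.68 in mutant replicates 1 to 3, against 8.47, 8.42 and 8.61 in control replicates 1 to 3. Mutant replicates 1 and 2 lay below all controls, and mutant replicate 3 lay above them. Its log2 fold change was -0.40 (95% interval -0.93 to 0.13, adjusted p = 0.325), and without mutant replicate 3 it was -0.69 and called lower (adjusted p = 0.0128), while without mutant replicate 2 it was -0.22 (adjusted p = 0.653). The other 3 Cldn3 probe sets gave -0.39, -0.44 and -0.43, so all 4 sets showed about the same size of difference. They read the same gene on the same arrays and are not independent of each other. Cldn7 was also below all controls on mutant replicates 1 and 2, but mutant replicate 3 lay within the control range. Its log2 intensities were 7.91, 7.90 and 8.53 in mutant replicates 1 to 3, against 8.49, 8.25 and 8.81 in control replicates 1 to 3. The groups overlapped through mutant replicate 3 (log2 fold change -0.40, 95% interval -0.88 to 0.07, adjusted p = 0.263).

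The gene of Cldn4 lies next to Cldn3 on chromosome 5. It had log2 intensities of 6.14, 6.11 and 6.73 in mutant replicates 1 to 3, against 6.11, 6.11 and 6.05 in control replicates 1 to 3. Mutant replicates 1 and 2 stood barely above the controls and mutant replicate 3 well above them (log2 fold change 0.24, 95% interval -0.14 to 0.62, adjusted p = 0.414). Without mutant replicate 3 the difference was 0.04. The RefSeq windows of these neighbours, chr5:134985964-134986263 on the plus strand for Cldn3 and chr5:134946885-134947184 on the minus strand for Cldn4, are shown to set them side by side, with capitals as before. The Cldn3 window held 1 E-box, and the Cldn4 window held 2 E-boxes and 1 TCF/LEF heptamer.
Cldn3: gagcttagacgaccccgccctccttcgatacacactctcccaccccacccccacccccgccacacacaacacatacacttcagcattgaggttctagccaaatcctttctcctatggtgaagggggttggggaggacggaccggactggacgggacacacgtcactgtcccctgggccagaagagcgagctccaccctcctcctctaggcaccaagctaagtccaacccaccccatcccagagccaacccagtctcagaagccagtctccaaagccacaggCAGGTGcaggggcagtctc
Cldn4: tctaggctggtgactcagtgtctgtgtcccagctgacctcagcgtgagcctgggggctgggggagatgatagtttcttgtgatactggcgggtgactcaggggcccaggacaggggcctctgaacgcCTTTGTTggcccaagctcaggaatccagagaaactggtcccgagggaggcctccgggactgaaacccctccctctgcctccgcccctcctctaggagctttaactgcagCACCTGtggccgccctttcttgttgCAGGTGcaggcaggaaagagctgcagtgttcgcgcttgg

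Cldn1, the claudin without which the skin barrier fails, showed the widest difference among the genes that were not called. It had log2 intensities of 5.53, 6.22 and 6.62 in mutant replicates 1 to 3, against 5.0, 5.39 and 4.41 in control replicates 1 to 3. Every mutant array lay above every control array, but both groups were spread. The log2 fold change was 1.19 (SE 0.32, 95% interval 0.45 to 1.93, adjusted p = 0.0513), just short of the threshold. The gene was called higher without mutant replicate 1 (1.48, adjusted p = 0.0206) or without control replicate 2 (1.42, adjusted p = 0.0477), and with quantile normalization, an intensity trend, array weights or the dimmest genes left out (1.16 to 1.19, adjusted p of 0.0296 to 0.0477). The other 3 Cldn1 probe sets were below an intensity of 16 on all 6 arrays and had log2 fold changes of -0.11, 0.23 and -0.07, so the difference rested on 1 probe set, and with the mean of all 4 sets it was 0.31 (adjusted p = 0.0942). Some markers of squamous epithelium were called higher. Of 8 measured, 3 were higher and none was lower, against 5.61% higher and 6.36% lower over all genes. Their summed intensity was 102 to 189 in the mutant and 41.7 to 45.8 in the control arrays. Krt15, a keratin of basal squamous cells, lay at 5.52 to 6.62 in the mutant and 2.30 to 2.90 in the control arrays, and Trp63, a transcription factor of the same cells, at 3.88 to 4.56 in the mutant and 2.29 to 2.70 in the control arrays (log2 intensity). Both were called higher, with all control arrays below an intensity of 16, and 5 of the 8 markers lay below it on every array. The part of these cells, or of the fat markers, in the Cldn1 difference was not tested.

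Cldn8, which works with Cldn4 in a chloride path of the kidney collecting duct, had log2 intensities of 6.44, 6.64 and 6.83 in mutant replicates 1 to 3, against 6.08, 6.29 and 6.18 in control replicates 1 to 3. The mutant arrays all lay above the controls, by a small step. It rose by a log2 fold change of 0.45 (SE 0.12, 95% interval 0.18 to 0.72, adjusted p = 0.0461), or 1.37-fold. This call lay at the edge of the threshold. It was lost without mutant replicate 2 or 3 or without any of the controls (0.35 to 0.50, adjusted p of 0.0673 to 0.159). The call was also lost with arrays centred on their medians (adjusted p = 0.0538), with quantile normalization (adjusted p = 0.0503) and in the fit over all probe sets (adjusted p = 0.0566). Cldn11, the claudin of myelin and of Sertoli cells, was below an intensity of 16 on every array, at a log2 intensity of 2.35 ± 0.07 in the mutant and 2.18 ± 0.21 in the control uterus (SD, n = 3 arrays each). The groups overlapped (log2 fold change 0.17, 95% interval -0.10 to 0.44, adjusted p = 0.407), and a change could be understated at this level. Of 6 measured myelin and Schwann cell markers, 4 were also below 16 on all arrays and 1, Mbp, was lower. None was higher by limma or at an unadjusted p under 0.05.

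Ocln, occludin, had log2 intensities of 5.98, 5.87 and 6.37 in mutant replicates 1 to 3, against 6.36, 6.33 and 6.19 in control replicates 1 to 3. Mutant replicate 3 reached the controls and the other mutant arrays lay below them. Its log2 fold change was -0.21 (95% interval -0.53 to 0.10, adjusted p = 0.380), its other probe set gave -0.20, and without mutant replicate 3 it was -0.36 (adjusted p = 0.0796), against -0.11 without mutant replicate 2 (adjusted p = 0.710). Marveld2, tricellulin, is a relative of occludin that sits where 3 cells meet, and its gene lies next to Ocln. Its log2 fold change was -0.47 (SE 0.12, adjusted p = 0.0463), lower in the mutant, a call that did not hold without any 1 array other than mutant replicate 3 (-0.55 to -0.37, adjusted p of 0.0530 to 0.158).

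The scaffold genes Tjp1 and Tjp3 were called in opposite directions. Tjp1 encodes ZO-1, which is found in epithelial and endothelial junctions and also at contacts of fibroblasts and muscle cells. It had log2 intensities of 9.29, 9.69 and 9.79 in mutant replicates 1 to 3, against 8.72, 8.77 and 8.65 in control replicates 1 to 3. The controls lay close together and every mutant array was above them. Tjp1 rose by a log2 fold change of 0.88 (SE 0.13, 95% interval 0.57 to 1.19, adjusted p = 0.00722), or 1.84-fold, and leaving out any 1 array kept the call (0.78 to 1.03, adjusted p of 0.00132 to 0.0361). Of 10 endothelial markers none was higher by limma and 1, Tek, was lower (log2 fold change -0.85, adjusted p = 0.0282). At an unadjusted p under 0.05, 3 were higher and 3 were lower, counts given without a share over all genes. The summed intensity was 664 to 780 in the mutant and 731 to 751 in the control arrays. Pecam1, the endothelial adhesion protein CD31, lay at 4.43 to 4.65 in the mutant and 4.68 to 4.76 in the control arrays, and Cdh5, VE-cadherin, at 6.79 to 7.19 in the mutant and at 7.15 to 7.34 in the control arrays (log2 intensity), neither of them called. Emcn, Eng and Robo4, further endothelial genes of the list named after their values were seen, lay the other way, with every mutant array above the controls and log2 fold changes of 0.29, 0.34 and 0.35 (adjusted p of 0.102, 0.105 and 0.0619). The part of endothelial RNA in the Tjp1 difference was not tested. Tjp3 encodes ZO-3, a scaffold found mainly in epithelia. It had log2 intensities of 4.88, 4.61 and 4.83 in mutant replicates 1 to 3, against 5.57, 5.20 and 6.0 in control replicates 1 to 3. All mutant arrays lay below the controls, which were more spread. The log2 fold change of Tjp3 was -0.81 (SE 0.19, 95% interval -1.26 to -0.37, adjusted p = 0.0337), leaving 56.9% of the control intensity. The call was lost without any 1 mutant replicate and without control replicate 1 or 3 (-0.87 to -0.61, adjusted p of 0.0544 to 0.122).

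The promoter windows of both scaffold genes are shown because they moved in opposite directions, with capitals as before. The Tjp1 window, chr7:65371195-65371494 on the minus strand, held neither motif. Both Tjp3 windows, chr10:81291532-81291831 and chr10:81291218-81291517 on the minus strand, held 1 E-box each and no TCF/LEF heptamer.
Tjp1: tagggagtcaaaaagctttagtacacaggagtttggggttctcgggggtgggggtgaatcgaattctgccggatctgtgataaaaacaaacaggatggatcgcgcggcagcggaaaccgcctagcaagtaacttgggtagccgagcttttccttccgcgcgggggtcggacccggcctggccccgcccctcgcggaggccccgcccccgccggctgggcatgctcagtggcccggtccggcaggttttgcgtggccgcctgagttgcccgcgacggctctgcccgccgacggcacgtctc
Tjp3, upstream start: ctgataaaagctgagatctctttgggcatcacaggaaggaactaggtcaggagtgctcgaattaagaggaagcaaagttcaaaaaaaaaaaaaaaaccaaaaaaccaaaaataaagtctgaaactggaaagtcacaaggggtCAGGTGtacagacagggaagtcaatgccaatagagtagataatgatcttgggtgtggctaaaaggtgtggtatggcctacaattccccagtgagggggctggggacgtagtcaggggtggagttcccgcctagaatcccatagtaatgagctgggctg
Tjp3, downstream start: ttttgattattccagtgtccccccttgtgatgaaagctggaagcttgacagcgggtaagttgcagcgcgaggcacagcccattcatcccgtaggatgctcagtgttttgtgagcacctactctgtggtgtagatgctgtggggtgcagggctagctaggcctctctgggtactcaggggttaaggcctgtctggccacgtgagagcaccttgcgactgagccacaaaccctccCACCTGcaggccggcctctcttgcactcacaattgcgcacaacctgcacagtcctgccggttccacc

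**Figure D2:**
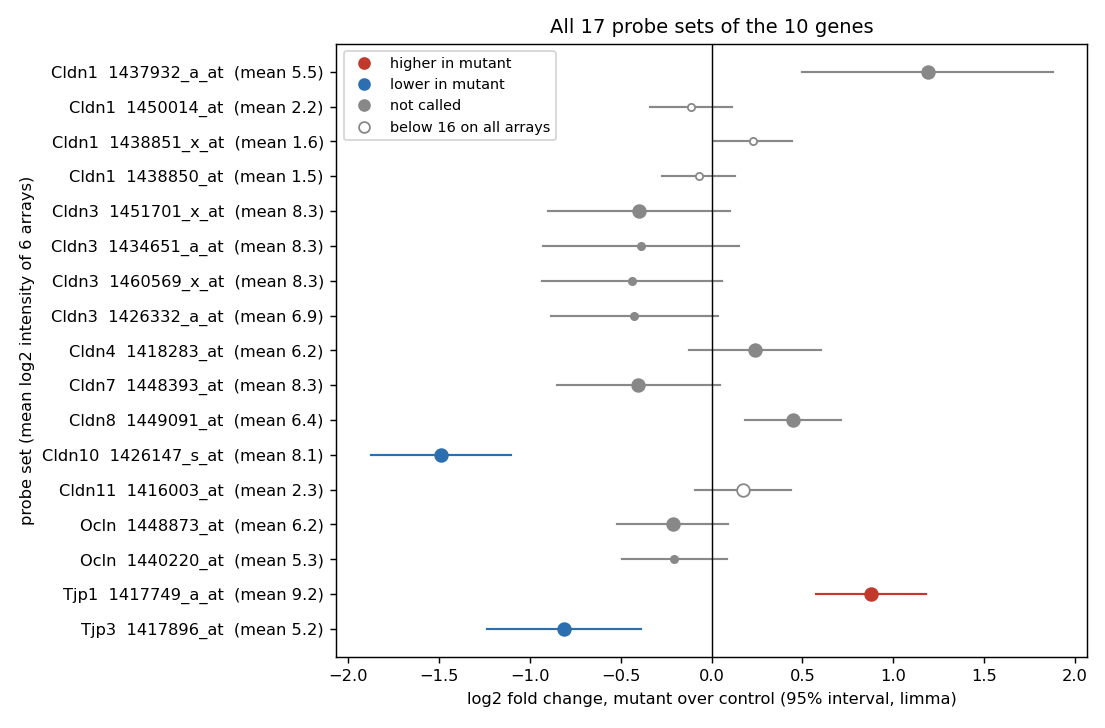
Each row is 1 of the 17 probe sets, with its mean log2 intensity in brackets, plotted by log2 fold change, mutant over control (x axis), with the 95% interval from the limma fit over all probe sets; large points represent the gene, colours mark higher (red), lower (blue) or uncalled (grey) sets, and open points lay below 16 on all arrays. The 4 Cldn3 sets lie between -0.44 and -0.39, while only the brightest Cldn1 set lies near 1.19.

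Some epithelial markers were lower in the mutant. Of 17 measured, 4 were lower, 13 were not called and none was higher by limma, against 6.36% lower and 5.61% higher over all genes. At an unadjusted p under 0.05, 9 were lower and 1 was higher, counts given without a share over all genes. The median log2 fold change of the 17 was -0.29. Krt18, a keratin of simple epithelia, was lower at a log2 fold change of -0.80 (SE 0.12, adjusted p = 0.00584). For its partner Krt8 the log2 fold change was -0.48 (adjusted p = 0.117), and for Cdh1, E-cadherin, it was -0.28 (adjusted p = 0.122). The mean log2 intensity of the markers differed from the control mean by -0.42, -0.43 and -0.07 in mutant replicates 1 to 3, against 0.04, -0.12 and 0.09 in control replicates 1 to 3. The group difference was -0.31 (exact permutation test, two-sided p = 0.20). With 3 arrays in each group this exact test cannot give a p below 0.1, so it cannot decide if the groups differ. On the mean of the markers, mutant replicate 3 stood with the controls. It was the highest mutant array for 7 of the 10 junction genes and for 16 of the 17 epithelial markers, against 31.6% of all genes. For Cldn3, Cldn7 and Ocln this placed it near the controls. For Cldn1, Cldn4, Cldn8 and Tjp1 it was instead the mutant array farthest from the control mean, at 1.68, 0.64, 0.64 and 1.08 above it. Subtracting the marker mean of each array was a step added after the data were seen and given with no test. It adds the same 0.31 to every gene's difference. Cldn3, Cldn7 and Ocln came to -0.09, -0.10 and 0.09, Cldn10 to -1.19 and Tjp3 to -0.51. Genes with a positive difference moved farther from the control mean. Tjp1 came to 1.18, Cldn1 to 1.496, Cldn8 to 0.76, Cldn4 to 0.54 and Cldn11 to 0.48. The subtraction does not measure the number of epithelial cells, and the part of the epithelial level in these differences was not tested.

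**Figure D3:**
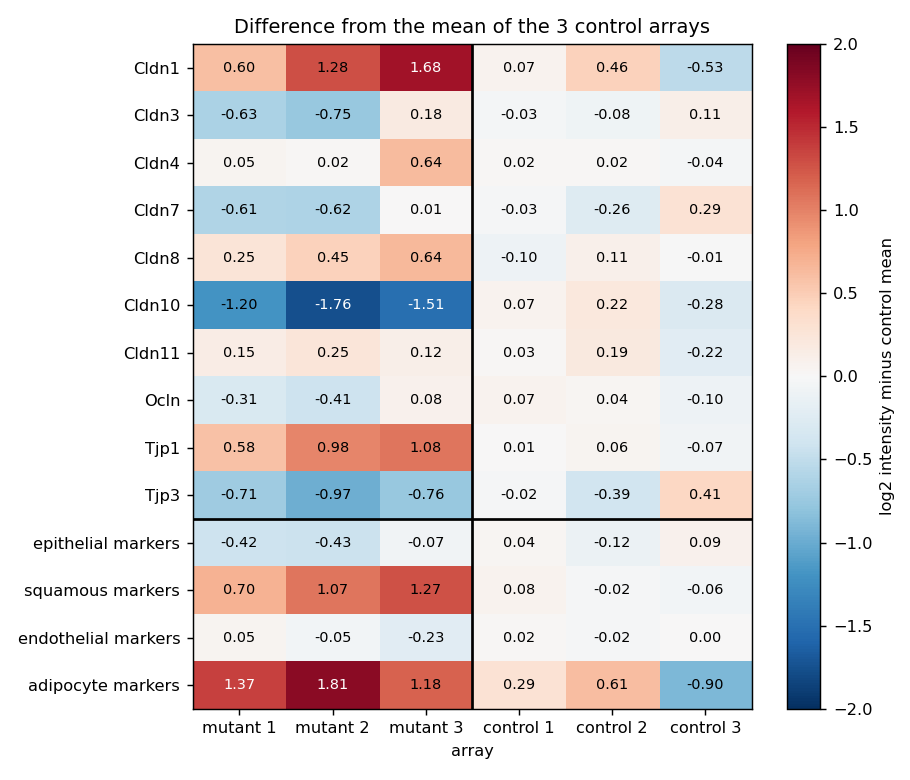
Each cell gives the log2 intensity of a gene, or the mean over a marker list, on 1 array (columns) minus the mean of the 3 control arrays, from blue (lower) to red (higher). Cldn10, from -1.76 to -1.20, and Tjp3, from -0.97 to -0.71, were low on all 3 mutant arrays, while Cldn3, Cldn7 and Ocln were low on mutant replicates 1 and 2, like the epithelial markers.

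The rest of the junction machinery was read from 3 lists of 71 genes, of which 63 were measured. Of these 63, 7 were higher, 9 were lower and 47 were not called, against 5.61% higher and 6.36% lower over all genes, with a median log2 fold change of -0.10 against -0.01 over all genes. Among 16 other claudins, none was higher by limma, nor at an unadjusted p under 0.05, and 2 were lower, and 9 of the 16 lay below an intensity of 16 on every array. Cldn23, a further claudin, had log2 intensities of 6.07, 5.51 and 5.89 in mutant replicates 1 to 3, against 7.51, 7.51 and 7.47 in control replicates 1 to 3. The control arrays were nearly identical and every mutant array lay far below them. Its log2 fold change was -1.68 (SE 0.14, adjusted p = 0.000637), to 31.3% of the control intensity, and the call held on leaving out any 1 array. Cldn15, which forms cation pores in the intestine, was lower at a log2 fold change of -0.51 (SE 0.10, adjusted p = 0.0193), which was not called without mutant replicate 3 or control replicate 3 (adjusted p of 0.0555 to 0.0563). Cldn5, the claudin of blood vessels, differed by 0.19 on the log2 scale (95% interval -0.21 to 0.58, adjusted p = 0.557). Cldn16, which lies beside Cldn1, was below 16 on all arrays in both groups.

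Of 14 other membrane proteins of the junction, 4 were higher, 1 was lower and 9 were not called. Over all genes the shares were 5.61% higher and 6.36% lower. Jam2 and Jam3, junctional adhesion molecules of endothelial and other cells, rose by 0.98 and 0.72 on the log2 scale (SEs 0.24 and 0.10, adjusted p of 0.0364 and 0.00443). Clmp, a relative of the coxsackievirus receptor, rose by 0.57 (adjusted p = 0.0141), and Ildr2, of the angulin family at tricellular contacts, by 0.49 (adjusted p = 0.0339). The call of Jam3 held on leaving out any 1 array. That of Clmp was lost without control replicate 1 (adjusted p = 0.0666), that of Jam2 without mutant replicate 2 or any of the controls (adjusted p of 0.0830 to 0.108), and that of Ildr2 without mutant replicate 2 or 3 or any of the controls (adjusted p of 0.0587 to 0.104).

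Of 33 plaque and polarity proteins, 3 were higher, 6 were lower and 24 were not called, against the same shares of 5.61% and 6.36% over all genes. Cgnl1, paracingulin, a protein of the junction plaque, had log2 intensities of 9.24, 9.67 and 9.46 in mutant replicates 1 to 3, against 7.96, 7.85 and 7.76 in control replicates 1 to 3. The groups were far apart, and Cgnl1 rose by a log2 fold change of 1.6 (SE 0.12, adjusted p = 0.000486), or 3.02-fold, the largest rise among the 63 genes. With the mean of its 5 probe sets it was 0.73 (adjusted p = 0.00559). Amot, angiomotin, which binds polarity proteins and the Hippo pathway effector YAP, rose by 0.86 (adjusted p = 0.00216), and its relative Amotl2 by 0.44 (adjusted p = 0.0263). The lower genes were Patj (-0.56), Lin7b (-0.60), Pard6b (-0.41), Prkcz (-0.56) and the Pard3 relative Pard3b (-0.58), together with Arhgef18 (-0.47), a guanine nucleotide exchange factor, with adjusted p between 0.0111 and 0.0475 from limma. On leaving out single arrays, Amot and Pard3b kept their calls. Amotl2, Patj, Lin7b, Pard6b and Prkcz each lost theirs on leaving out any of 4 or 5 of the arrays in turn, and Arhgef18 without mutant replicate 2 or control replicate 1 (adjusted p of 0.0526 to 0.0695). Averaging all probe sets of a gene moved Jam3 to 0.37, Amot to 0.26, Patj to -0.34, Pard3b to -0.37, Lin7b to -0.40 and Arhgef18 to -0.09. The call of Arhgef18 (adjusted p = 0.590) was lost in this way, as were those of Ildr2 and Pard6b. Pard6b lay below an intensity of 16 on every array. Of the 16 list genes named as called, 12 lost their call with a floor of 16, where Lin7b was at -0.11, Prkcz at -0.39 and Pard6b at 0. The floor left the fold changes of the other named genes as they were. All but Cgnl1 lost their call with the methods' t-test after adjustment.

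**Figure D4:**
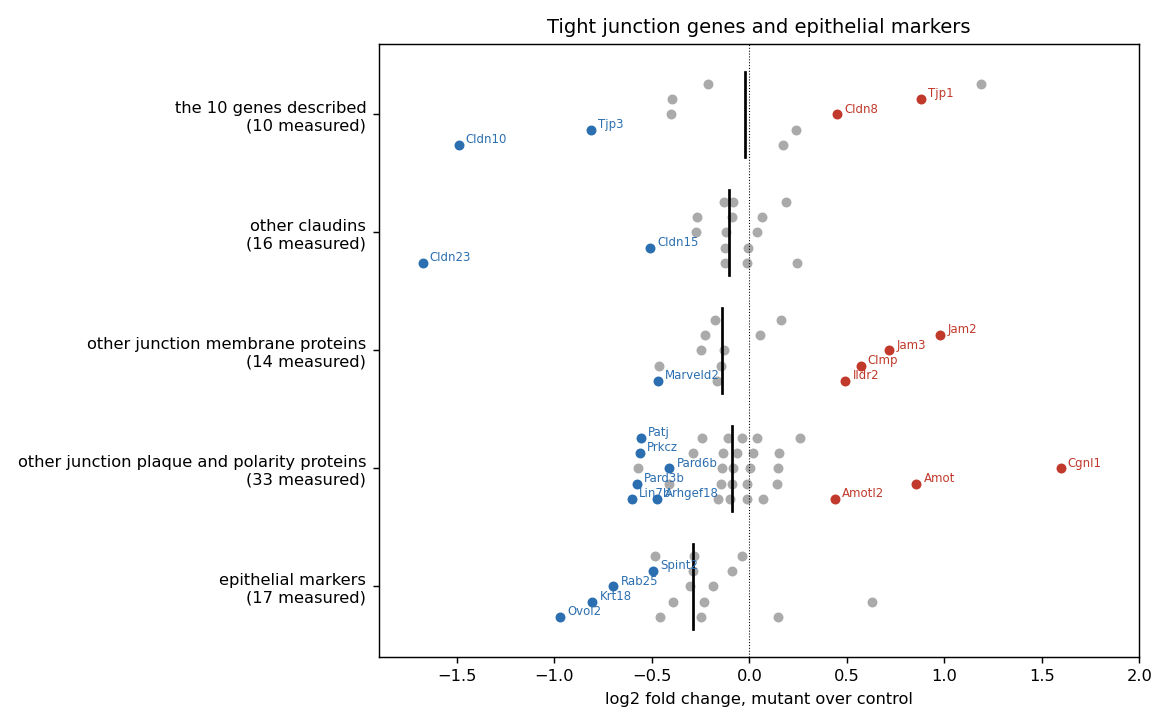
Each point is 1 gene by its log2 fold change, mutant over control (x axis), grouped by list (y axis, number measured in brackets); limma called the red genes higher and the blue ones lower, grey ones were uncalled, and each black bar is a list's median. The medians of the junction lists lie between -0.14 and -0.02 and that of the epithelial markers at -0.29, while Cldn23 and Cldn10 at the left and Cgnl1 at the right stand farthest out.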

How the data were processed

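Uterine RNA was read on 3 mutant and 3 control Affymetrix arrays, and groups and replicate numbers were taken from the sample titles. The authors deposited 1 linear intensity per probe set and array. RMA is named in the submitters' processing notes, while the sources used here give no version, filter or detection call. No batch or scan date was given. A floor of 1, to which no value had to be raised, came before the log2. Of 45037 probe sets, 34945 had 1 gene symbol in GEO's platform annotation, 932 had several, 9160 had none, and the gene identifiers of 34741 sets were in RefSeq (GRCm38.p6), which changed 0 symbols. The 18193 genes were tested with limma 3.58.1 in R 4.3.3 (lmFit, then eBayes, without covariates), p-values being adjusted over all genes by Benjamini-Hochberg with a threshold of 0.05. All probe sets were fitted in the same way. Errors of means are SDs, and intervals are limma's 95% intervals.

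The genes, the junction and marker lists and the rule for named genes were chosen with earlier results of these data known. Named were the 10 genes and, from each junction list, up to 6 called genes in each direction whose groups do not overlap. Cldn5, Cldn16, Esam and several markers are named beyond that rule, and the likeness of patterns was not ranked. The steps were tested on simulated data. Arrays were not paired by replicate number in the main fit. Deviations from the group means correlated at 0.01, 0.21 and 0.16 across genes for numbers 1 to 3, which does not settle if the arrays were paired. Any 2 arrays held the same value at 2.11% of probe sets at most. Promoter windows are RefSeq's. ChIP-seq, RT-qPCR, staining and human data were not analysed here.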

Additional observations from a re-analysis of the deposited data

How the results depend on the processing

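The member genes were refitted under 17 alternatives, including 1 chosen after seeing the data, without control replicate 2 and mutant replicate 1. No direction turned. Of 169 refits, 140 kept their side of the threshold, 21 lost a call and 8 gained one. The calls of Cldn10 and Tjp1 were lost only with a floor of 16 (adjusted p of 0.0520 and 0.0698) and with the methods' t-test (adjusted p of 0.0705 and 0.0892). Member genes higher (2) and lower (2) numbered 0 and 0 with a floor of 16 and 0 and 0 with the methods' t-test after adjustment (3 and 2 at an unadjusted p under 0.05). Those higher numbered 1 after median centring of the arrays and 1 with all probe sets adjusted together. On leaving out 1 array, 1 to 3 were higher and 1 to 2 lower. Of the member probe sets, 1 higher and 2 lower became 0 and 0 with a floor of 16, and 1 to 3 and 1 to 5 on leaving out 1 array. The count of 5 came without mutant replicate 3.

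Over all genes, 1021 higher and 1157 lower became 283 and 243 with a floor of 16, 105 and 39 with the methods' t-test after adjustment, and 1924 and 2224 at its unadjusted p under 0.05. They were 744 and 757 at the paper's threshold, over 1.5-fold with an unadjusted p below 0.05, and 480 to 971 and 372 to 1139 on leaving out 1 array. The fewest came without control replicate 1, and mutant replicate 2 (580 and 493), mutant replicate 3 (760 lower) and control replicate 2 (682 lower) also moved a count by over 1.5 times. With the replicate block, which pairs arrays by number only, 966 genes were higher and 1085 lower, 2 member genes were called each way, and 2 member probe sets were higher. No member gene changed its call under the block, though Cldn7 came close to being called lower (SE 0.096, adjusted p = 0.0522). Of the 16 list genes, Marveld2, Patj and Pard6b lost theirs (adjusted p of 0.0868, 0.0654 and 0.0653), and the marker Krt8 was called lower (adjusted p = 0.0204). Among mutant arrays, each correlated best with the control array of its own number, at 0.01, 0.21 and 0.16, but control replicate 1 correlated better with mutant replicate 3 (0.11). No background correction could be varied, as only summarized intensities were used.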

Other observations

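Lists of markers of other cell types of the uterine wall were read beside the junction genes. Of 10 smooth muscle markers none was called by limma (2 were lower at an unadjusted p under 0.05), with summed intensities of 14057 to 16305 in the mutant and 14363 to 16373 in the control arrays. Of 12 stromal markers 1 was higher and none was lower by limma (2 higher and 3 lower at an unadjusted p under 0.05, summed intensity 25179 to 26803 in the mutant and 26343 to 27577 in the control arrays). Of 10 macrophage markers 2 were higher, of 8 adipocyte markers 3, and of 8 ciliated and oviduct markers 1, with none lower in these lists. At an unadjusted p under 0.05 these counts were 5, 8 and 3, again with none lower. Over all genes limma called 5.61% higher and 6.36% lower, and no share over all genes is given for its unadjusted counts. None of 7 mesothelial markers was called by limma (1 was lower at an unadjusted p under 0.05). Esam, an adhesion molecule of endothelial junctions, was at a log2 fold change of 0.06 (95% interval -0.15 to 0.26, adjusted p = 0.750 from limma).

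Within the epithelial list the members did not move together. Ovol2, a transcription factor that keeps epithelial identity, fell by 0.97 on the log2 scale, Rab25, a GTPase of apical recycling, by 0.70 and Spint2, a protease inhibitor, by 0.49, all called by limma. Prom1, prominin 1 of apical membrane protrusions, had log2 intensities of 8.44, 8.49 and 9.14 in mutant replicates 1 to 3, against 8.14, 7.65 and 8.39 in control replicates 1 to 3 (log2 fold change 0.63, adjusted p = 0.140). These 4 genes were picked after their values were seen.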
